A study of Mus musculus with 38 samples.

Results

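The spiral ganglion (SG) fraction of kainate-treated cochlear explants was compared between 24 h and 5 h in culture. The comparison rests on 7 of the 38 arrays of the series, chosen by their sample names: 3 arrays at 24 h (replicates 1, 3 and 4) and 4 arrays at 5 h (replicates 1 to 4). All explants came from C57BL/6 mice of postnatal day 3 to 5, and each was a flat culture of the organ of Corti with its attached spiral ganglion. Kainate was given at 0.4 mM for 2 h, and control explants received none. At the end of culture each explant was dissected into SG and organ of Corti (OC), and RNA of each fraction was hybridized to Illumina MouseRef-8 bead arrays. The groups set beside the comparison were SG of control explants at 24 h (n = 2) and 5 h (n = 4), OC of kainate-treated explants at 24 h (n = 2) and 5 h (n = 4), and SG of kainate-treated explants at 72 h (n = 3).

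Spiral ganglion neurons carry the signal of hair cells to the brainstem through peripheral processes that end on hair cells at glutamatergic ribbon synapses. Kainate is a glutamate receptor agonist, and excess receptor activation swells and destroys these terminals while the cell bodies and hair cells largely survive. In this culture model 5 h was used as the stage of damage and 24 h as a stage at which processes were growing back, so the comparison asks which transcripts differed between these stages. The SG fraction is a mixed tissue of neurons, Schwann and satellite glia, fibroblasts, vessels, blood cells and macrophages, and the dissection can leave cells of the neighbouring epithelium in it.

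Between 10959 and 12171 of 25697 probes were above background (detection p under 0.01) on each of the 7 arrays. Pearson correlations over all probes were 0.987 to 0.994 between 24 h arrays, 0.984 to 0.992 between 5 h arrays and 0.982 to 0.99 between arrays of the 2 times. Of 30 spiral ganglion neuron markers, 23 were above background, as were 11 of 18 Schwann and satellite glia markers, 16 of 19 fibroblast markers, 19 of 23 macrophage markers and 9 of 18 hair cell markers. In whole tissue, fewer cells of a type and less RNA per cell cannot be told apart. Levels below are normalized log2 signals and changes are log2 differences, 24 h minus 5 h, with the standard error (SE) of the fit.

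At an adjusted p under 0.05 (limma, Benjamini-Hochberg over all probes), 132 probes changed between 24 h and 5 h after kainate, which is 0.514% of those tested. Of these, 52 were higher at 24 h (0.202%) and 80 were lower (0.311%), and together they stand for 46 genes that rose and 75 that fell. Changes ran between a rise of 2.15 and a fall of 1.32 on the log2 scale, and the median over all probes was -0.004. The arrays of the 2 times did not overlap for 126 of the 132 probes, where over all probes they did not overlap for 4.44% with 24 h higher and 4.98% with 24 h lower. The 132 probes were chosen by their separation on these same arrays. A lack of overlap, here and for single genes below, therefore describes the values and is no further evidence of a change. With the replicate number as a block the count was 276 (136 higher and 140 lower), and all 132 probes were among them. At the unadjusted p of 0.005 used as the threshold in the study, 578 probes passed (2.25%), 279 higher (1.09%) and 299 lower (1.16%), and 2400 (9.34%) had an unadjusted p under 0.05.

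The count depended on single arrays and on the scaling. It was 15 without replicate 1 and 19 without replicate 3 at 24 h, and 44 without replicate 1 at 5 h, while leaving out any other array gave between 91 and 116. Of the 132 probes, only 74 to 88 were among those 91 to 116. Centring each array on its median in place of quantile normalization gave 75 probes, 21 higher and 54 lower. The neqc background correction gave 57 higher and 54 lower, and the array batch as a block gave 92 higher and 83 lower. These held 87 and 93 of the 132 probes. Batch was known from the colours of the study's clustering plot: replicate 4 of both times shared a batch, and the other arrays of the 2 times had no batch in common. The 24 h replicates 1 and 3 lay together in another batch, which held none of the 5 h arrays. Within the batch of replicate 4 all 132 probes differed in the same direction, as did 69.0% of all probes, but both arrays entered the choice of the 132, so that this agreement is no independent check of the batch.

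**Figure D1:**
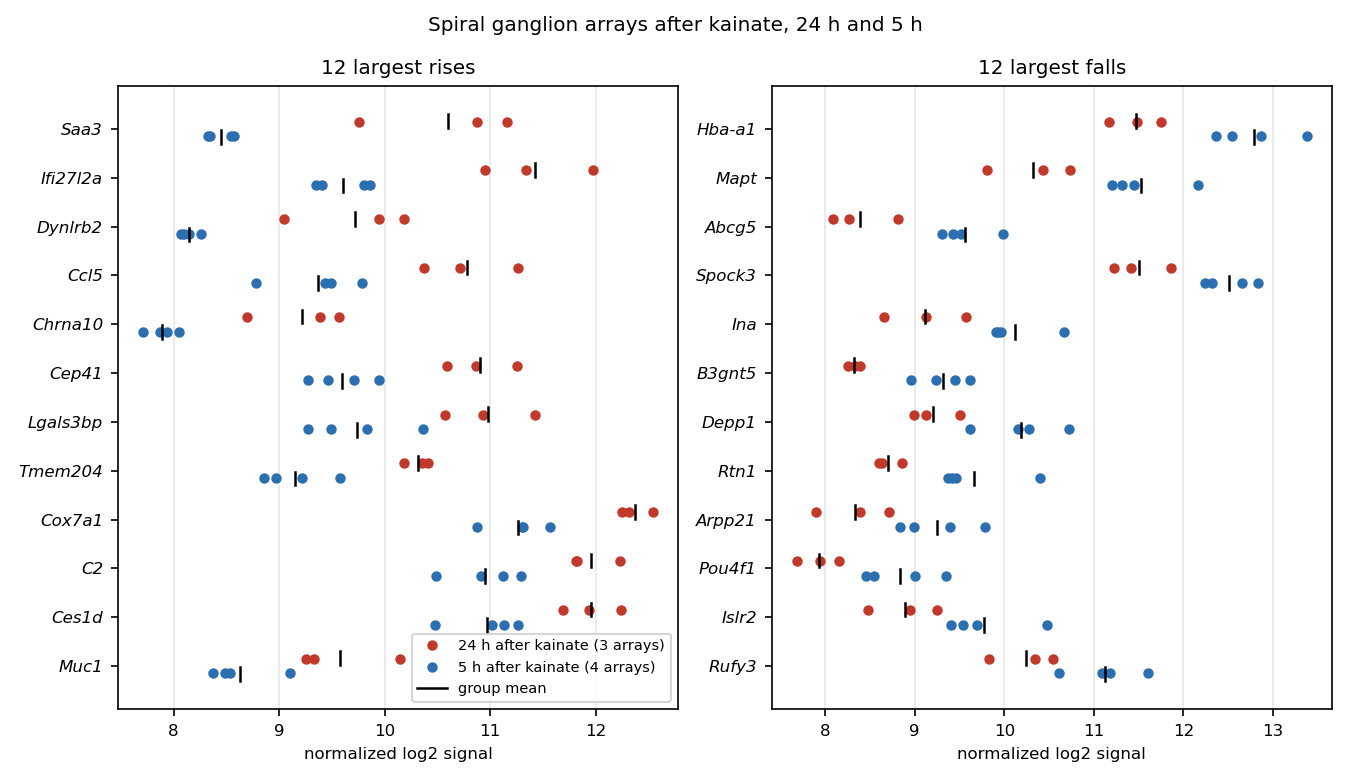
Normalized log2 signal (horizontal axis) of the 12 genes with the largest rises and the 12 with the largest falls among changed probes, in spiral ganglion after kainate; each point is 1 array, at 24 h (n = 3) or 5 h (n = 4). The points of the 2 times do not overlap for any of the genes drawn.

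Among the largest rises were genes of the acute phase, interferon and leukocyte response. Saa3, an acute-phase serum amyloid A protein made by macrophages and stromal cells, rose most. Its signal at 24 h was 10.87, 9.76 and 11.16, against 8.55, 8.33, 8.57 and 8.35 at 5 h. The lowest 24 h array lay above every 5 h array, although the 24 h arrays spread more widely (10.60 ± 0.74 at 24 h and 8.45 ± 0.13 at 5 h, SD). The change was 2.15 ± 0.45 (SE), with an adjusted p of 0.0207. Ifi27l2a, an interferon-induced gene, had signals of 10.95, 11.34 and 11.97 at 24 h, and 9.41, 9.35, 9.80 and 9.86 at 5 h. Its change was 1.81 ± 0.37 with an adjusted p of 0.0197, and the arrays did not overlap.

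The 250 bases upstream of Saa3 are shown because they hold matches to 2 of the 4 motifs searched, an interferon-stimulated response element (GAAA, any 2 bases, GAAA) and a C/EBP type site (TTGC, any 2 bases, AA). The stretch lies on the minus strand at chr7:46715677-46715926 (GRCm38.p6, RefSeq), it ends at the base before the start of transcription, and capitals mark the matches, at bases -125 to -116 and -99 to -92. The C/EBP type match lies on the strand opposite to the one printed, where it reads as TT, any 2 bases, GCAA in the printed bases.
Saa3: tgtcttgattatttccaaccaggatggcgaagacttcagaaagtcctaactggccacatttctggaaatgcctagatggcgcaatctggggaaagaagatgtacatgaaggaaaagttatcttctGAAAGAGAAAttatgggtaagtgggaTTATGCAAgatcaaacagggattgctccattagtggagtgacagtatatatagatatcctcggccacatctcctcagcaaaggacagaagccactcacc
Over 27025 upstream stretches of the same length, 3.04% held the first motif and 9.55% the second, on either strand. The motifs were picked with these sequences and changes known, and a match is a description only.

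Ccl5, a chemokine that draws T cells and monocytes, had signals of 10.38, 10.71 and 11.27 at 24 h, and 9.43, 8.78, 9.78 and 9.49 at 5 h. Its change was 1.41 ± 0.33 with an adjusted p of 0.0377, without overlap. Lgals3bp, a secreted galectin-binding glycoprotein, was at 10.58, 10.94 and 11.43 at 24 h, and at 9.49, 9.28, 9.84 and 10.37 at 5 h, a change of 1.24 ± 0.25 (adjusted p 0.0172). C2, the complement component that forms the classical convertase with C4, had signals of 11.82, 11.82 and 12.23 at 24 h, and 10.48, 11.29, 11.12 and 10.92 at 5 h. It rose by 1.00 ± 0.24, close to the threshold (adjusted p 0.0481). These genes depended on single arrays: without the 24 h replicate 1 the adjusted p was 0.153 for Saa3, 0.0518 for Ifi27l2a, 0.0902 for Ccl5 and 0.157 for C2, and without the 24 h replicate 4 it was 0.117, 0.118, 0.209 and 0.211, with 0.115 for Lgals3bp. Leaving out the 24 h replicate 3 gave 0.0775 for Ifi27l2a, 0.128 for Ccl5, 0.0716 for Lgals3bp and 0.123 for C2, and leaving out the 5 h replicate 1 gave 0.0534 for Saa3, 0.0658 for Ifi27l2a, 0.0838 for Ccl5, 0.0652 for Lgals3bp and 0.181 for C2. Further adjusted p values over 0.05 were 0.15 (Ccl5) and 0.0591 (Lgals3bp) without the 5 h replicate 2, 0.0702 (C2) without the 5 h replicate 3, and 0.0585 (Ccl5) and 0.0834 (C2) without the 5 h replicate 4.

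Further genes of this kind among the changed probes were chosen after their values were seen. Cd40, a costimulatory receptor of antigen-presenting cells, averaged 10.23 ± 0.20 at 24 h and 9.34 ± 0.27 at 5 h (SD), a rise of 0.89 ± 0.21 (SE) with an adjusted p of 0.0347. Fpr2, a formyl peptide receptor of phagocytes, rose by 0.89 ± 0.21 (adjusted p 0.0481), with overlapping arrays. Oas1g and Oas2, members of the interferon-induced oligoadenylate synthetase family that senses double-stranded RNA, rose by 0.55 ± 0.11 (adjusted p 0.0172) and 0.58 ± 0.13 (adjusted p 0.0271). Phf11a, another interferon-induced gene, rose by 0.46 ± 0.10 (adjusted p 0.022). The probes that rose for Oas1g (1 of its 4), Oas2 and Phf11a were not above background on any 5 h array. Their rises correspond to at least 1.03-fold for Oas1g and at least 1.03-fold for Oas2, and no fold above 1 could be bounded for Phf11a. Such a bound sets the mean of the brighter time against, on each array of the other time, the higher of the probe's own signal and the dimmest signal that was above background there.

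As lists these groups had few calls. Of 39 chemokines, cytokines and NF-kB targets 2 rose and 0 fell (5.13% against 0.514% of all probes), with a median change of 0.07, and they were Saa3 and Ccl5. Cxcl10, an interferon-induced chemokine of this list, was lower at 24 h: its signals were 7.82, 8.35 and 8.10 at 24 h, and 8.93, 8.25, 9.31 and 9.22 at 5 h, a difference of -0.84 ± 0.23 (SE) that did not pass (adjusted p 0.0985) and passed as a fall with the replicate block (adjusted p 0.0429). Of 12 complement genes, C2 alone rose (8.33% against 0.202% of all probes), and 10 had changes above 0, where 48.7% of all probes did. None of 30 interferon-induced genes passed by its brightest probe, with a median of 0.04 and 18 of 30 above 0, where 48.7% of all probes had a change above 0. The largest change in this list was 0.89. The probes that rose for Ifi27l2a, Oas2 and Phf11a were not among those read for it, so the list does not cover every interferon-induced gene described. In this list Bst2, tetherin, averaged 10.24 ± 0.33 at 24 h and 9.35 ± 0.34 at 5 h (SD, adjusted p 0.0766, and 0.017 with the replicate block), and Irf7, a transcription factor that amplifies interferon output, averaged 8.02 ± 0.22 and 7.56 ± 0.13 (adjusted p 0.0808). Cmpk2, a mitochondrial nucleotide kinase of the same list, lay the other way, at 9.38 ± 0.21 at 24 h and 9.93 ± 0.40 at 5 h (adjusted p 0.117, and 0.062 with the replicate block). The brightest probe of Oas1g, which was above background on 3 of the 4 arrays at 5 h, averaged 8.98 at 24 h and 8.39 at 5 h and did not pass (adjusted p 0.0551, and 0.046 with the replicate block).

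The macrophage and leukocyte markers lay higher at 24 h as a list, without a call. Of 23 markers 20 had changes above 0, where 48.7% of all probes did, and 0 passed the test. The median of the list was 0.39, against -0.004 over all probes. The mean of the list was 9.41, 9.22 and 9.95 on the 24 h arrays, and 9.09, 8.73, 8.97 and 9.27 on the 5 h arrays, so that the 24 h replicate 3 lay below the 5 h replicate 4. Cd52, a leukocyte surface glycoprotein, had signals of 9.50, 9.31 and 11.47 at 24 h, and 8.38, 7.90, 8.23 and 9.62 at 5 h, a difference of 1.56 with an adjusted p of 0.107 (0.0294 with the replicate block). Replicate 4 was the highest array at both times. Plac8 was at 11.06, 11.47 and 11.46 at 24 h, and at 10.55, 9.52, 10.08 and 10.16 at 5 h (difference 1.26, adjusted p 0.131). Lyz2, the lysozyme of myeloid cells, differed by 1.26 (adjusted p 0.375). This marker list averaged higher at 24 h, as did Saa3, Ifi27l2a, Ccl5 and Cd40. Whether they varied together from array to array was not tested, nor was the part of the list in those rises.

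**Figure D2:**
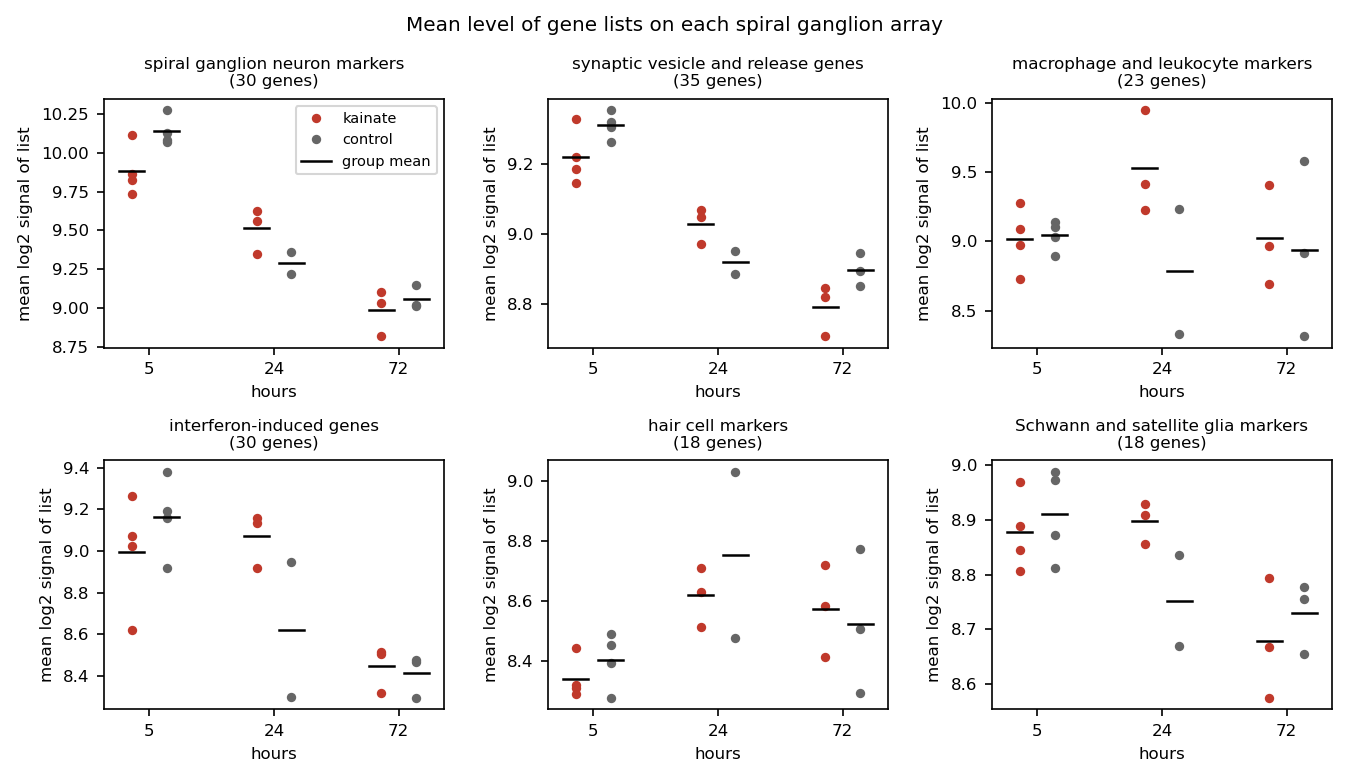
Mean log2 signal (vertical axis) of the genes of each list on every spiral ganglion array at 5, 24 and 72 h (horizontal axis), after kainate and in control explants. At 24 h after kainate the neuron list lay between 9.35 and 9.63 and the macrophage list between 9.22 and 9.95.

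Other large rises included genes known from cilia, hair cells or epithelium, and no list of cilium genes was made. Dynlrb2, a light chain of the dynein motors of cilia, had signals of 9.95, 10.18 and 9.04 at 24 h, against 8.26, 8.15, 8.07 and 8.10 at 5 h. The 5 h arrays lay within 0.2 of each other and below every 24 h array, and the change was 1.58 ± 0.25 (SE, adjusted p 0.00246). Dynlrb2 was among 5 of the 39 probes described by rule that passed whichever of the 7 arrays was left out, together with Tmem204, B3gnt5, Gng3 and Syn2.

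The 250 bases upstream of Dynlrb2 are shown because they hold the 1 match to an RFX type X-box (GT, any 2 bases, CC, any 2 bases, G, any base, AAC), the motif of the factors that drive cilium genes, among the rises with an upstream sequence. They lie on the plus strand at chr8:116504765-116505014 (GRCm38.p6, RefSeq), and capitals mark the match, at bases -51 to -39.
Dynlrb2: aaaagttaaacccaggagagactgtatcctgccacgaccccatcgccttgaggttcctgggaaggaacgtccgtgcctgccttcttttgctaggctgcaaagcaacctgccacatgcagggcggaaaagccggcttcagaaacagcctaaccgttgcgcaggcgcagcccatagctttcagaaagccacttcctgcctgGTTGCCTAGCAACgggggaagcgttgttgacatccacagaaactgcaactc
This motif was held by 1.37% of the 27025 upstream stretches. Of the 24 genes with the largest changes 18 had an upstream sequence, and 6 of these held a match to any of the 4 motifs. The other motif searched was an NF-kB type site (GGGA, any 4 bases, CC, held by 17.3% of all stretches), found for Cox7a1, Spock3 and Ina. Among the falls, Hba-a1 also held an RFX type X-box, at bases -196 to -184. Spock3, a fall too, held an interferon-stimulated response element, at bases -154 to -145.

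Cep41, a centrosomal protein needed for tubulin glutamylation in cilia, had signals of 11.25, 10.87 and 10.59 at 24 h, and 9.71, 9.46, 9.95 and 9.28 at 5 h. It rose by 1.31 ± 0.27 with an adjusted p of 0.0193. Chrna10, a subunit of the acetylcholine receptor through which efferent fibres inhibit hair cells, was at 9.39, 9.57 and 8.70 at 24 h, and at 7.87, 7.93, 8.05 and 7.71 at 5 h. Chrna10 was not above background on any 5 h array, so the rise of 1.33 ± 0.27 (adjusted p 0.0197) corresponds to at least 2.22-fold. Drc3, a component of the ciliary dynein regulatory complex chosen after its value was seen, rose by 0.62 ± 0.13 (adjusted p 0.0268) on 1 of its 3 probes. That probe was likewise not above background at 5 h, which makes the rise at least 1.40-fold, and the brightest probe did not pass (0.62, adjusted p 0.0764). Muc1, a mucin of epithelial surfaces, had signals of 9.25, 10.15 and 9.33 at 24 h, and 8.49, 8.38, 9.10 and 8.54 at 5 h, a rise of 0.95 ± 0.22 (adjusted p 0.0333) that 2 of its 4 probes showed at this threshold. Without the 24 h replicate 1 the adjusted p was 0.169 for Cep41, 0.149 for Chrna10 and 0.0709 for Muc1, and without the 24 h replicate 3 it was 0.0779, 0.14 and 0.35. Leaving out the 5 h replicate 1 gave 0.054 for Chrna10 and 0.101 for Muc1, and leaving out the 5 h replicates 2 and 4 gave 0.115 and 0.0705 for Muc1.

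Of 18 hair cell markers 1 rose (5.56% against 0.202% of all probes), which was Chrna10, and 13 of 18 had changes above 0, where 48.7% of all probes did, with a median of 0.18. Otof, the calcium sensor of hair cell synapses, had signals of 8.88, 9.06 and 8.50 at 24 h, and 7.71, 7.81, 8.32 and 7.51 at 5 h, a difference of 0.97 with an adjusted p of 0.0591 (0.0265 with the replicate block). The defining markers Myo7a and Tmc1 were not above background on any 5 h array and were so on 3 and 2 of the 24 h arrays. The mean of the list was 8.71, 8.63 and 8.51 at 24 h, and 8.32, 8.31, 8.44 and 8.29 at 5 h, without overlap. Of 18 supporting cell and epithelium markers 1 rose (5.56%), S100a1, a calcium-binding protein, by 0.70 ± 0.15 (adjusted p 0.0207), with overlapping arrays. The mean of that list lay between 10.64 and 11.03 at 24 h and between 10.46 and 10.90 at 5 h. How much hair cell or epithelial tissue the SG fractions held was not measured apart from these lists, and its part in the rises of Dynlrb2, Cep41, Chrna10 and Muc1 was not tested.

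The other large rises fell in several classes. Tmem204, a membrane protein of endothelial cells, had signals of 10.18, 10.35 and 10.41 at 24 h, and 9.22, 8.86, 8.97 and 9.58 at 5 h, a rise of 1.16 ± 0.20 (adjusted p 0.00522) without overlap. Cox7a1, the heart and muscle form of a subunit of cytochrome oxidase, was at 12.54, 12.32 and 12.24 at 24 h, and at 11.31, 11.30, 11.57 and 10.88 at 5 h, a rise of 1.10 ± 0.19 (adjusted p 0.00508, and 0.0566 without the 24 h replicate 1). Ces1d, a carboxylesterase, rose by 0.98 ± 0.21 (adjusted p 0.027). Leaving out any 1 of 5 arrays ended the call of Ces1d, with adjusted p values of 0.222, 0.0655 and 0.0705 without the 24 h replicates 1, 3 and 4, and of 0.0696 and 0.0841 without the 5 h replicates 1 and 4. Aldoc, a brain-type aldolase, was the 1 of 31 glycolysis and hypoxia genes that rose (3.23% against 0.202% of all probes), by 0.60 ± 0.13 (adjusted p 0.0278, and 0.239 without the 24 h replicate 1, 0.217 without the 24 h replicate 3, 0.0707 without the 5 h replicate 1 and 0.0943 without the 5 h replicate 4). Among changed probes chosen after their values were seen, 3 glutathione transferases rose: Gstm2 by 0.66 and 0.79 on 2 probes, Gstk1 by 0.72 and Gstt3 by 0.70 (adjusted p 0.0278, 0.0132, 0.0377 and 0.0172). Gstm2 belongs to a family of similar copies, and its probes may read more than 1 member.

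The falls were led by genes of neurons and of blood. Mapt, the microtubule-binding protein tau of axons, had signals of 9.81, 10.43 and 10.73 at 24 h, and 11.31, 11.20, 11.45 and 12.16 at 5 h. Every 24 h array lay below every 5 h array, and the change was -1.21 ± 0.29 (SE, adjusted p 0.0414), on 1 of the 4 probes of the gene. Ina, alpha-internexin, an intermediate filament of axons, was at 8.66, 9.12 and 9.57 at 24 h, and at 9.91, 9.93, 9.97 and 10.67 at 5 h, a fall by 1.00 ± 0.20 (adjusted p 0.0172). Both times held a high replicate 4, and without overlap the lowest 5 h array stayed above the highest 24 h array by more than 0.3.

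Dcx, doublecortin, a microtubule protein of young and migrating neurons, had signals of 8.12, 8.27 and 8.48 at 24 h, and 9.26, 8.94, 8.85 and 9.51 at 5 h. It fell by 0.85 ± 0.16 (adjusted p 0.00943), and 2 of its 3 probes passed. Pou4f1, the sensory neuron transcription factor Brn3a, was at 7.68, 7.94 and 8.15 at 24 h, where it was not above background on any array, and at 8.46, 8.54, 9.0 and 9.35 at 5 h. Its change of -0.91 ± 0.17 (adjusted p 0.0132) corresponds to at least 1.76-fold, and 1 of its 2 probes passed. Elavl3, the neuronal RNA-binding protein HuC, fell by 0.67 ± 0.14 (adjusted p 0.0207), with values of 8.14, 8.49 and 8.88 at 24 h, and 8.99, 8.90, 9.20 and 9.60 at 5 h.

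Mapt, Ina, Dcx, Pou4f1 and Elavl3 were the 5 of 30 spiral ganglion neuron markers that fell (16.7% against 0.311% of all probes), and 0 rose. The list held 25 changes below 0, where 51.3% of all probes did, and had a median of -0.34. Its mean was 9.35, 9.56 and 9.63 on the 24 h arrays, and 9.83, 9.74, 9.86 and 10.11 on the 5 h arrays, so that no array overlapped. The count of 5 was 0 without the 24 h replicate 1 and 0 without the 24 h replicate 3, and 3 without the 5 h replicate 4. With the array batch as a block Mapt no longer passed (adjusted p 0.193). Schwann and satellite glia markers, from the other main cells of the ganglion, had 0 calls among 18 and a median of -0.004, with 8 changes above 0 and 10 below.

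Further neuronal genes stood among the largest falls. Spock3, a proteoglycan of the nervous system, had signals of 11.22, 11.42 and 11.87 at 24 h, and 12.66, 12.32, 12.25 and 12.83 at 5 h, a change of -1.01 ± 0.23 (adjusted p 0.0335). Rtn1, a reticulon of the neuronal endoplasmic reticulum, was at 8.64, 8.85 and 8.60 at 24 h, and at 9.46, 9.38, 9.42 and 10.40 at 5 h, a change of -0.96 ± 0.20 (adjusted p 0.022) on 1 of its 4 probes. Brighter probes of Rtn1, at 11.70 and 11.88 at 24 h and at 12.24 and 12.36 at 5 h, differed by -0.54 and -0.48 and did not pass (adjusted p 0.325 and 0.385). Arpp21, a phosphoprotein of neurons regulated by cyclic AMP, was at 7.89, 8.39 and 8.71 at 24 h, and at 9.39, 8.99, 8.83 and 9.78 at 5 h. It fell by 0.92 ± 0.16 (adjusted p 0.00522) on 1 of its 4 probes. Rufy3, a neuronal polarity factor, fell on all 3 of its probes, by 0.88 ± 0.18 on the brightest (adjusted p 0.0172), and Islr2, an axon guidance membrane protein, fell by 0.89 ± 0.21 (adjusted p 0.0487, and 0.0746 with the batch as a block). The arrays of the 2 times did not overlap for any of these genes, although for Arpp21 the highest 24 h and the lowest 5 h array were within 0.2.

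Genes of transmitter release and of repetitive firing also fell. Syn2, a synapsin that tethers synaptic vesicles, had signals of 8.33, 8.42 and 8.39 at 24 h, and 8.98, 8.84, 8.99 and 9.35 at 5 h, a change of -0.66 ± 0.11 (adjusted p 0.00508). Syt4, a synaptotagmin, fell by 0.74 ± 0.15 (adjusted p 0.0172), with values of 9.60, 9.99 and 9.77 at 24 h, and 10.76, 10.53, 10.48 and 10.32 at 5 h. Rph3a, a Rab3 effector on vesicles, was not above background at 24 h and fell by 0.58 ± 0.13 (adjusted p 0.027), which is at least 1.34-fold. They were the 3 of 35 synaptic vesicle and release genes that fell (8.57% against 0.311% of all probes), with a median of -0.10, and with the replicate block 6 fell. Rab3a, a vesicle GTPase among these, averaged 10.68 at 24 h and 11.15 at 5 h (adjusted p 0.0863, and 0.0335 with the replicate block). Syp, synaptophysin, averaged 10.31 ± 0.25 at 24 h and 10.99 ± 0.26 at 5 h (SD, adjusted p 0.0508, and 0.0153 with the replicate block). Kcnc4 and Kcnc1, Kv3-type potassium channels of fast-firing neurons, fell by 0.82 ± 0.19 and 0.40 ± 0.10 (adjusted p 0.0417 and 0.0498). They made 2 of 22 potassium channel genes (9.09% against 0.311% of all probes), and each lost its call on leaving out 6 of the 7 arrays in turn. Kcnc1 was not above background at 24 h, and its fall corresponds to at least 1.14-fold. Neither glutamate receptor genes (16), sodium and calcium channel genes (18) nor synapse adhesion and scaffold genes (26) held a call, with medians of -0.06, -0.07 and -0.02. Only 5, 6 and 12 of them were above background on all arrays of either time, so a change in the rest could hardly be seen. Over probes above background on at least 3 of the 7 arrays the medians were -0.16, -0.17 and -0.09. Nrxn2, a presynaptic adhesion protein with the lowest change of the last of these lists, had signals of 8.97, 9.19 and 9.24 at 24 h, and 9.73, 9.32, 9.86 and 9.82 at 5 h, without overlap. Its difference of -0.55 ± 0.17 did not pass (adjusted p 0.164) and passed as a fall with the replicate block (adjusted p 0.0429).

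Chosen after their values were seen, the regulated secretion genes Cadps, a priming factor of dense-core vesicles, and Rims3, of the presynaptic active zone, fell by 0.80 ± 0.14 and 0.75 ± 0.17 (adjusted p 0.00522 and 0.0337). Kif5c, a kinesin heavy chain of axonal transport, fell by 0.49 ± 0.12 (adjusted p 0.048). Gng3, a G protein gamma subunit of neurons, was not above background on any 24 h array and fell by 0.75 ± 0.11 (adjusted p 0.00121), which is at least 1.45-fold.

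Most calls were lost on leaving out 1 of the 24 h arrays. Over the 39 probes described by rule that passed, 32 no longer passed without the 24 h replicate 1, 29 without the 24 h replicate 3 and 14 without the 24 h replicate 4. Without the 5 h replicates 1, 2, 3 and 4, 21, 6, 8 and 20 were lost. Over the 18 probes chosen after their values were seen, the losses were 15, 16 and 10 for the 24 h arrays and 13, 9, 8 and 4 for the 5 h arrays, with adjusted p values up to 0.352, and Srm alone of them passed under every omission. Without the 24 h replicate 1 the adjusted p was 0.347 for Mapt, 0.187 for Ina, 0.0928 for Dcx, 0.133 for Pou4f1, 0.256 for Elavl3, 0.257 for Spock3, 0.149 for Rtn1, 0.0994 for Arpp21, 0.195 for Rufy3, 0.388 for Islr2, 0.159 for Syt4, 0.106 for Rph3a, 0.261 for Kcnc4 and 0.344 for Kcnc1. Without the 24 h replicate 3 all of these but Arpp21 and Syt4 were lost, with values between 0.0655 and 0.166. Without the 24 h replicate 4, Rtn1, Syt4, Rph3a, Kcnc4 and Kcnc1 were lost (0.0504 to 0.125). Without the 5 h replicate 1, Mapt, Spock3, Islr2, Syt4, Kcnc4 and Kcnc1 were lost (0.0707 to 0.125), without the 5 h replicate 3 Mapt, Islr2, Kcnc4 and Kcnc1 (0.0534 to 0.0898), and without the 5 h replicate 4 Mapt, Elavl3, Spock3, Rtn1, Rufy3, Islr2, Rph3a, Kcnc4 and Kcnc1 (0.0504 to 0.15). Each of these genes kept its sign under every omission.

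Outside neurons, Hba-a1, the alpha chain of hemoglobin, had the largest fall. Its signals were 11.17, 11.76 and 11.49 at 24 h, and 12.87, 12.37, 12.55 and 13.38 at 5 h, a change of -1.32 ± 0.29 (adjusted p 0.0278) without overlap. At 72 h after kainate it averaged 7.62. Its near-identical copy Hba-a2 may share the probe, so the gene is uncertain. Of 6 red blood cell markers Hba-a1 alone fell (16.7% against 0.311% of all probes), and all 6 had changes below 0, where 51.3% of all probes did. The mean of the list was 8.03 to 8.18 at 24 h and 8.29 to 8.56 at 5 h. Hba-a1 was the only 1 of the 6 above background on all arrays of either time. The other changes, the smallest of them -0.001, are of probes at or near background and carry little weight. Leaving out the 24 h replicates 1, 3 or 4 gave adjusted p values of 0.214, 0.0716 and 0.0761 for Hba-a1, and leaving out the 5 h replicates 1 or 4 gave 0.074 and 0.0852.

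B3gnt5, the glycosyltransferase that starts lacto-series glycolipids, had the smallest p of all described genes. Its signals were 8.39, 8.33 and 8.25 at 24 h, and 9.45, 8.96, 9.24 and 9.62 at 5 h, a change of -0.99 ± 0.13 (adjusted p 0.00053) without overlap. Abcg5, a sterol transporter, was at 8.26, 8.08 and 8.82 at 24 h, and at 9.31, 9.98, 9.52 and 9.43 at 5 h, a change of -1.17 ± 0.28 (adjusted p 0.0415). The call of Abcg5 was lost on leaving out any array but the 24 h replicate 4, with adjusted p values up to 0.26 without the 24 h replicate 3. Depp1, a target of FOXO factors, fell by 0.98 ± 0.23 (adjusted p 0.0446, and up to 0.272 without the 24 h replicate 1).

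The falls of 5 further genes of metabolism and RNA processing are given as single genes, chosen after their values were seen. Srm, spermidine synthase, averaged 10.54 ± 0.02 at 24 h and 11.39 ± 0.19 at 5 h (SD), a fall of 0.85 ± 0.15 (SE, adjusted p 0.00522). Mars1, the methionyl-tRNA synthetase, fell by 0.69 ± 0.15, Prmt3, an arginine methyltransferase of ribosomal protein, by 0.54 ± 0.11, Rrp9, a ribosomal RNA processing factor, by 0.51 ± 0.12, and Atic, of purine synthesis, by 0.50 ± 0.11 (adjusted p 0.0269, 0.0197, 0.0448 and 0.0278). In control explants the same differences were -0.40 for Srm, -0.03 for Mars1, -0.21 for Prmt3, -0.04 for Rrp9 and -0.16 for Atic, and 0 of the 5 passed there. The differences between the kainate and control changes did not pass for any of them (unadjusted p 0.00618 for Mars1 and 0.0527 for Srm).

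Lists of stress and growth responses held no calls. Of 31 immediate early genes 0 passed, with a median of -0.13, and of 29 ER stress and amino acid response genes 0 passed, with a median of -0.21 and 23 changes below 0. Over all probes 51.3% had a change below 0. Chac1, a glutathione-degrading enzyme of the ER stress response, averaged 11.58 ± 0.37 at 24 h and 12.57 ± 0.23 at 5 h (SD, adjusted p 0.288). Hspa1a, an inducible HSP70, was at 10.91, 10.89 and 10.99 at 24 h, and at 12.20, 12.89, 13.08 and 11.57 at 5 h, a difference of -1.50 ± 0.49 (SE) that did not pass (adjusted p 0.204) although the arrays did not overlap. Socs3, a feedback inhibitor of cytokine receptors and a listed nerve injury gene, was at 12.12, 12.44 and 11.33 at 24 h, and at 10.90, 10.80, 10.91 and 10.66 at 5 h, a difference of 1.14 ± 0.33 (adjusted p 0.136, and 0.00322 with the replicate block). Of 28 nerve injury and regeneration genes, 19 repair Schwann cell genes, 52 axon guidance genes and 24 neurotrophic factor genes 0 passed, with medians of -0.07, -0.05, 0.03 and 0.04. In these lists 23, 10, 29 and 11 genes were above background on all arrays of either time. Cholesterol synthesis genes had a median of -0.22 over 18 genes, and cell cycle genes one of -0.07 over 35, each with 0 calls.

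**Figure D3:**
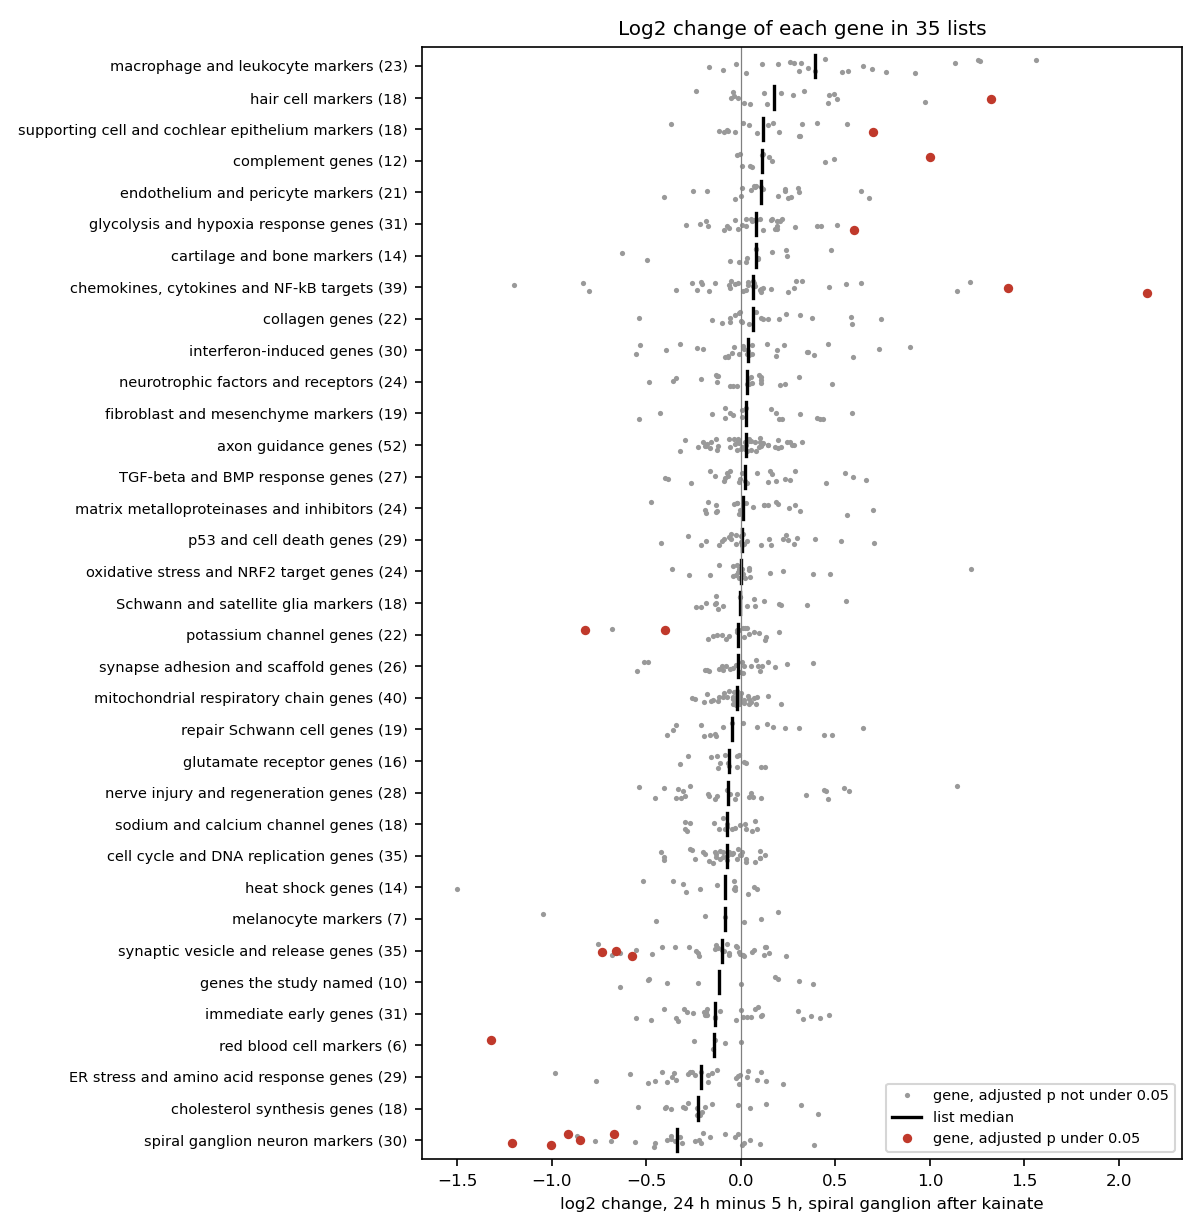
Log2 change, 24 h minus 5 h, in spiral ganglion after kainate (horizontal axis) of each gene with a probe in 35 gene lists (rows); each point is 1 gene, its brightest probe. The neuron marker row has its median at -0.34, the lowest of the lists drawn, and the macrophage row at 0.39, the highest.

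Control explants changed over the same interval, and without kainate more probes passed. In control SG 500 probes differed between 24 h and 5 h (1.95%), 164 higher (0.638%) and 336 lower (1.31%), with 2 arrays at 24 h and 4 at 5 h. The count was 159 without the control 24 h replicate 2. The control 24 h replicate 2 shared a batch with the control 5 h replicate 1, and replicate 3 with the control 5 h replicates 2, 3 and 4. The counts of 500 and 132 therefore come from arrays laid out differently over the batches. Of the 132 probes that changed after kainate, 125 had the same sign in controls and 69 also passed there, 21 of the 52 rises and 48 of the 80 falls. The share of all probes with the same sign in kainate and control explants was not counted. Of the 12 largest falls 11 also passed in controls, and for 10 of them the control change was the more negative. Over all 80 falls the control change was the more negative for 45. The control change was -1.70 for Mapt, -1.83 for Ina, -1.93 for Rtn1, -2.01 for Arpp21 and -1.85 for Rufy3. Over the 30 neuron markers the median was -0.34 after kainate and -0.92 in controls, where 17 fell. The mean of the neuron list was 9.51 ± 0.15 at 24 h and 9.88 ± 0.16 at 5 h after kainate (SD), and 9.29 ± 0.10 at 24 h and 10.14 ± 0.09 at 5 h in controls. On this list kainate arrays averaged above controls at 24 h and below them at 5 h.

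Dynlrb2, Cep41, Chrna10 and Muc1 also rose in controls, by 1.75, 1.38, 1.22 and 1.22. Cox7a1 rose by 1.14 and Ces1d by 1.13 in controls. For the immune rises the control change was 0.02 for Saa3, -0.05 for Ccl5, 0.40 for Ifi27l2a, 0.60 for Lgals3bp, 0.99 for C2 and 0.13 for Cd40. None of these 6 passed in controls (C2 had an adjusted p of 0.0505), and the difference between the kainate and control changes did not pass for any of them. Control arrays varied for these genes. Saa3 was at 8.51 and 8.96 at 24 h, and at 10.30, 8.28, 8.46 and 7.83 at 5 h, and Ifi27l2a was at 8.81 and 11.02 at 24 h, and between 9.21 and 9.76 at 5 h. The macrophage list averaged 8.33 and 9.23 on the 2 control arrays at 24 h, replicates 2 and 3, and its median change was -0.21 in controls.

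**Figure D4:**
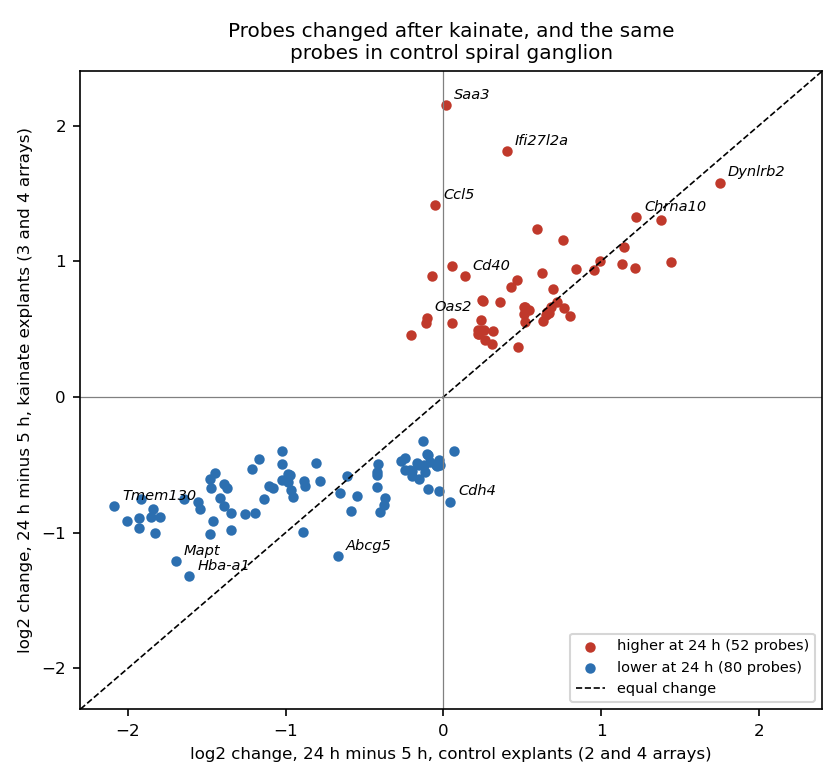
Log2 change, 24 h minus 5 h, of the 132 changed probes in spiral ganglion after kainate (vertical axis) and of the same probes in control spiral ganglion (horizontal axis); each point is 1 probe. Of these, 125 have the same sign on both axes.

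The difference between the 2 changes, kainate minus control, was tested for every probe. It passed for 2 probes (0.00778%), both of Art3, an ADP-ribosyltransferase family member, and for 0 of the 132 probes above. At an unadjusted p under 0.005 it passed for 230 probes, 24 of the 132 among them, and at an unadjusted p under 0.05 for 1592 (0.895% and 6.2% of all probes). The first Art3 probe was at 9.46, 9.69 and 9.69 at 24 h, and at 9.19, 9.01, 8.76 and 9.09 at 5 h after kainate. In controls it was at 7.76 and 8.63 at 24 h, and at 9.08, 9.28, 9.14 and 9.39 at 5 h. Its change was 0.60 ± 0.19 after kainate, which did not pass (adjusted p 0.18), and -1.03 in controls, and the difference was 1.63 ± 0.28 (SE, adjusted p 0.0341). The second probe had a difference of 1.23 ± 0.21 (adjusted p 0.0341), and its other probe was not above background. Both calls were lost with the batch as a block, with median centring and in a fit of SG arrays only, where 0 probes passed. With neqc 8 probes passed, but the Art3 probes did not (adjusted p 0.218 and 0.157), and in a fit of the groups compared only with the replicate block they had adjusted p values of 0.136 and 0.315. Leaving out the kainate 24 h replicate 3 or 4, or the kainate 5 h replicate 2 or 3, also ended both Art3 calls. So did leaving out the control 24 h replicate 2, or the control 5 h replicate 2 or 4. The number of probes that passed ran from 0, without the kainate 24 h replicate 4, to 47, without the kainate 5 h replicate 4, and it was 44 without the control 24 h replicate 3 and 28 without the kainate 24 h replicate 1.

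Of the genes next in order, the neuronal RNA-binding proteins Elavl2 and Elavl4 had differences of 1.35 ± 0.27 and 1.16 ± 0.24, and Col3a1, a fibrillar collagen, one of 1.47 ± 0.30 (unadjusted p 2.4e-05, 3.1e-05 and 3.3e-05), none of which passed after adjustment. Elavl2 was at 9.20, 9.66 and 9.71 at 24 h, and at 9.86, 9.58, 9.94 and 10.55 at 5 h after kainate, and in controls at 8.48 and 8.79 at 24 h, and at 10.24, 10.43, 10.66 and 10.46 at 5 h. Plac8 differed by 2.10 ± 0.55 and Irf7 by 0.79 ± 0.18 (unadjusted p 0.00056 and 0.00014). The difference was above 0 for 23 of 30 neuron markers, 21 of 23 macrophage markers and 27 of 30 interferon-induced genes, where 47.4% of all probes had a difference above 0. Other lists lay the same way, with 18 of 19 fibroblast markers (median difference 0.53, and 0.53 for neuron markers), 18 of 22 collagen genes and 17 of 21 endothelium markers above 0. Of the heat shock genes 1 of 14 and of the cholesterol synthesis genes 2 of 18 had a difference above 0.

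**Figure D5:**
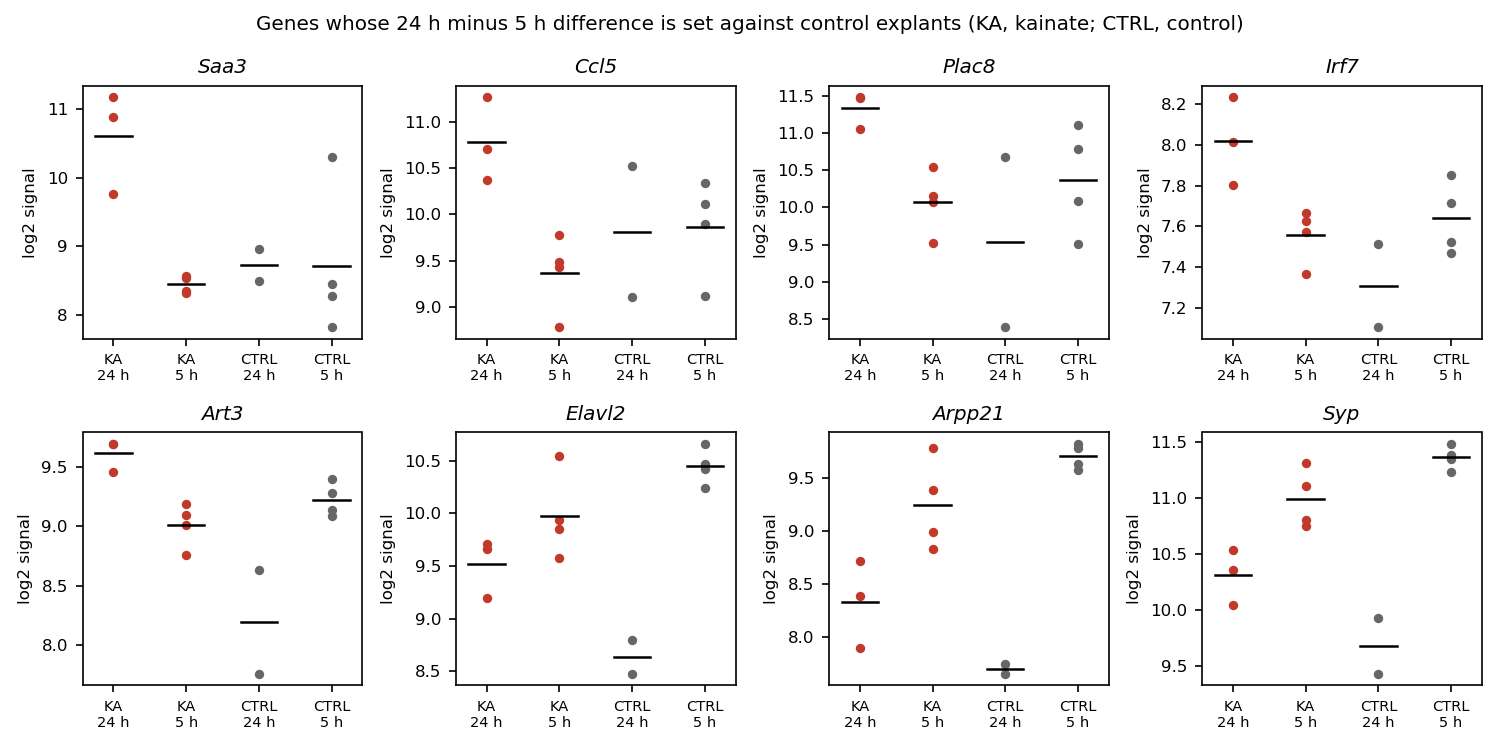
Log2 signal (vertical axis) on each spiral ganglion array at 24 h and 5 h, after kainate (KA; n = 3 and 4) and in control explants (CTRL; n = 2 and 4), for genes set against controls. For the first Art3 probe the kainate arrays lay between 9.46 and 9.69 at 24 h and the control arrays at 7.76 and 8.63.

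The OC fraction of the kainate-treated explants gave 0 changed probes between 24 h and 5 h (limma, adjusted p under 0.05), with 1933 at an unadjusted p under 0.05 (7.52%) and 315 under 0.005 (1.23%). Of the 132 probes that changed in SG, 110 had the same sign in OC, and 49 had an unadjusted p under 0.05 there. The share of all probes with the same sign in SG and OC was not counted. The difference between the SG and OC changes passed for 0 probes, with a smallest adjusted p of 0.732, 106 probes at an unadjusted p under 0.005 (0.412%) and 1097 under 0.05 (4.27%). SG and OC of an explant share their animal, and no block for the explant was fitted. Arpp21 had the smallest p, with a change of -0.92 in SG and 0.27 in OC (difference -1.19, unadjusted p 2.8e-05). Maf, a transcription factor, fell by 0.75 ± 0.14 in SG (adjusted p 0.0132, and 0.158 and 0.0655 without the 24 h replicates 1 and 3) and differed by 0.16 in OC, and Derl3, of the degradation of ER proteins, rose by 0.71 ± 0.14 in SG (at least 1.24-fold, since it was not above background at 5 h; adjusted p 0.0172, and 0.103 and 0.0905 without the 24 h replicates 3 and 4) and differed by -0.15 in OC. Their differences between tissues were -0.90 and 0.85 (unadjusted p 0.00021 and 0.00033). Hba-a1 fell in SG by 1.32 and differed in OC by -1.90, and Cox7a1 differed by 1.10 in SG and 1.09 in OC.

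The study followed 10 genes of neurogenesis, neurite growth, axon guidance, synapse formation and vesicle function by name. It set kainate against control explants at each time, which is another comparison than 24 h against 5 h. By its brightest probe 0 of the 10 passed between 24 h and 5 h after kainate, and 7 were above background on all arrays of either time. No probe of Rgmb, Ppp1r1c or Syt8 was above background on any of the 7 arrays, so these genes say little here. Syn1, synapsin I, averaged 9.06 ± 0.36 at 24 h and 9.70 ± 0.32 at 5 h on its brightest probe (SD, adjusted p 0.0964, and 0.0313 with the replicate block), and its second probe fell by 0.60 ± 0.13 (adjusted p 0.0254, and 0.0589 with the batch as a block). Sema7a, a membrane-bound semaphorin, was at 8.85, 9.03 and 9.20 at 24 h, and at 8.80, 8.69, 8.80 and 9.04 at 5 h, an uncalled difference of 0.20. Ntrk3, the receptor of neurotrophin-3, averaged 8.14 ± 0.09 at 24 h and 8.63 ± 0.13 at 5 h (adjusted p 0.0865, and 0.017 with the replicate block). The difference from the control change was above 0 for 8 of the 10 and reached an unadjusted p under 0.005 for 8. These genes were chosen in the study on these samples and are not independent evidence of a direction.

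At 72 h after kainate the falls mostly stood lower still. Of the 80 probes that fell between 24 h and 5 h, 60 had a 72 h mean below the 24 h mean. Of the 52 that rose, 29 had a 72 h mean above the 24 h mean and 23 below it. The same shares over all probes were not counted. Saa3 averaged 8.45, 10.60 and 8.95 at 5, 24 and 72 h, Ifi27l2a 9.61, 11.42 and 9.84, and Ccl5 9.37, 10.78 and 9.48. Dynlrb2 averaged 8.14, 9.72 and 10.02 at these times, Muc1 8.63, 9.58 and 10.94, and Cox7a1 11.27, 12.37 and 13.28. Ina averaged 10.12, 9.12 and 8.52, and Syp 10.99, 10.31 and 8.84. These 72 h means are descriptions and were not tested.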

How the data were processed

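SG and OC fractions of cochlear explants were measured on 38 arrays in 12 groups, with groups and replicate numbers taken from the sample names. By the study's methods, explants of 12 animals received kainate and 12 other explants did not, with 4 explants for each time, and the fractions whose RNA passed quality control were used. The labels tie no array to an animal. The authors deposited raw signal intensities (array medians 204 to 272 over the 7 arrays), log2 values and a detection p-value for each probe and array. The log2 values that the authors deposited equal the quantile-normalized log2 raw signals to within 4.99e-09, without background subtraction, so that folds of dim probes are understated. The deposited series matrix holds the same log2 values (largest difference 0). The labels name limma without a version, and no scanner program is named.

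The fit used limma (3.58.1, under R 4.3.3) with a cell mean for each of the 12 groups and all 38 arrays (26 residual and 5.36 prior degrees of freedom), and Benjamini-Hochberg adjustment ran over all 25697 probes. Of these, 23978 have 1 gene symbol, for 16593 genes, 1719 have none and 0 have several. Symbols come from the platform annotation, and 23962 of its gene identifiers were found in a RefSeq table. In each of 35 lists (781 of 890 genes with a probe) a gene was read by its brightest probe. No set test was run. Members and lists were chosen with earlier results of these data known.

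The genes described are the 12 highest and 12 lowest changed probes above background on every array of the higher group, the 5 members of each list with the smallest p, the 6 probes of smallest p on each side of each difference test, and the genes the study named. Others are said to be chosen after their values were seen. A probe described that was not above background on any array of 1 time has a bound on its fold beside its log2 change. Same-numbered arrays deviated together from their time means (r = 0.369, 0.336 and 0.601 for replicates 1, 3 and 4 over 10938 probes, and -0.423 to 0.2 between different numbers), so the replicate block was run beside the unblocked fit. Deviations from a mean of 3 arrays cancel, so the negative values between different numbers are partly built in. The arrays of replicate 4 also share a batch, and what a shared number stands for is not known. Batches were read from the colour bar of the study's clustering plot. The fitting was tested on simulated data. The number of arrays limits the precision. Upstream sequences are RefSeq's for GRCm38.p6, found for 18 of 24 genes.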

Additional observations from a re-analysis of the deposited data

Results flagged for a closer look

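Among 78 probes and 35 list means tested for an array standing apart within the 4 arrays at 5 h after kainate, 5 probes and 1 list had one, by Dixon's critical value for 4 samples. Chance gives about 1 such array in 20 groups. Ina (10.67) and Rtn1 (10.4) were highest on replicate 4 at 5 h, which shares its batch with the 24 h replicate 4. Without it their falls were still below 0, and Rtn1 no longer passed (adjusted p 0.0703). For Ibsp, a bone matrix protein, 1 array at 5 h stood at 8.99, for Olig1 1 stood at 8.24, for Col4a5 1 stood at 9.7, and for the mean of the collagen genes 1 stood at 10.94.

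Art3 differed between kainate and control explants by the test of the difference itself, with differences between the changes of 1.63 and 1.23 on its probes (adjusted p 0.0341 each). It was the only gene to pass that test in the main fit. Both calls were lost under 15 of 28 alternatives, the omission of single arrays among them. No cause was tested for any of these values.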

How the results depend on the processing

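The 59 called and 46 uncalled probes run under the alternatives kept the direction of their change under each of them. Sema7a, Myo7a, Tmc1, the brighter probes of Rtn1 and Drc3 and the dimmer probe of Mapt were not run. The number of probes that changed between 24 h and 5 h after kainate (132) was 75 with median centring, 276 with the replicate block, 33 in a fit of SG arrays only, 20 in a fit of the 7 arrays only, 435 in that fit with the replicate block (added after seeing the data), 425 with array weights, 46 without moderation, 578 at an unadjusted p under 0.005 and 9 after Bonferroni adjustment. It stayed within 1.5 times with neqc (111), the filter on dim probes (167), the batch as a fixed (175) or random (184) block and the series matrix (132). The probes were not all the same: 87, 127, 93, 129 and 132 of the 132 were among them. Leaving out 1 array gave 15 to 116. The control count (500) was 913 at the unadjusted threshold, 108 after Bonferroni and 159 to 460 on leaving out 1 array. The difference from controls (2) gave 0 with median centring, the batch as a fixed block, SG arrays only, the groups compared only, no moderation and Bonferroni, 8 with neqc (Art3 not among them), 5 with the replicate block, 1 with the groups compared only and that block (not Art3), 230 at the unadjusted threshold, and 0 to 47 on leaving out 1 array. The difference from OC (0) gave 1 with the groups compared only and the replicate block, 106 at the unadjusted threshold and 0 to 1 on leaving out 1 array. The causes were not tested; the smaller counts on leaving out an array come with fewer arrays.

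With the replicate block all 59 called probes described, 2 of Art3 for the difference included, kept their call, and 15 of 46 uncalled ones passed. For those named in the report that value stands beside them. The others were Bik (adjusted p 0.00136), Col16a1 (0.0484) and Bdnf (0.0482), higher at 24 h, and Dct (0.0431), lower. The block changed no other call among these probes. With the batch as a fixed block 12 of the 59 lost theirs, among them Mapt (adjusted p 0.193), Islr2 (0.0746), Syn1 (0.0589), Soga3 (0.091), Cd40 (0.0739), Drc3 (0.0603), Gstk1 (0.0518), Kif5c (0.0814), Mars1 (0.0607) and Gstm2 (0.0768 on the dimmer of its probes). Median centring ended 26 of the calls and neqc 23. Median centring moved the median of all probes to 0.00 and neqc to -0.01. With 3 and 4 arrays, and 2 in the control and OC groups at 24 h, small changes were not detectable, and signals near background limit the fold of Oas1g, Oas2, Phf11a, Chrna10, Drc3, Derl3, Pou4f1, Rph3a, Kcnc1 and Gng3.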
